A study of Mus musculus with 24 samples.

Results

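The genes described here are 9 genes of the MHC class II pathway, out of 22911 genes named on the arrays: Ciita, Rfx5, Rfxap, Rfxank, Cd74, Ctss, H2-Aa, H2-Ab1 and H2-DMa. They were taken by gene symbol through the accession of each probe, which gave 14 probes. All probes of these genes are described, and 8 of the 9 genes entered the test over 14425 genes. H2-Aa did not, because its single probe was well above background on 0 of 22 arrays. The samples were ID8 cells, a transformed line from mouse ovarian surface epithelium that is grown as a model of ovarian cancer. Cells were treated for 3 h with recombinant mouse interferon epsilon (IFN epsilon) or interferon beta (IFN beta), each at the doses 10, 100 and 1000 IU/ml, or were left untreated, which per the labels' protocols meant PBS as vehicle. Each experiment was done on 3 dates, and IFN beta at 10 and at 100 IU/ml have 2 samples each here because the array of the third date is marked as excluded in the labels. The 5 other groups have 3 samples each, so there were 19 samples, with 2 arrays averaged for every untreated sample. One cell line was used, so the samples differ by date and culture and not by animal.

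MHC class II molecules are pairs of an alpha and a beta chain that show peptides from the endosome to CD4+ T cells. CIITA is the transactivator that switches their genes on, and it acts through a complex of RFX5, RFXAP and RFXANK bound at the class II promoters. In cells that are not professional antigen-presenting cells, class II is classically switched on by interferon gamma, whereas IFN epsilon and IFN beta are type I interferons, which signal through another receptor and are best known for raising antiviral genes and MHC class I. The invariant chain CD74 holds the groove of a new class II molecule, cathepsin S (Ctss) cuts the invariant chain away, and H2-DM loads the peptide.

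Levels are given as the signal of a probe in percent of the 75th-percentile intensity of its array, which ranged from 644 to 1221 intensity units. That intensity was 644 to 844 on the arrays of the third date and 955 to 1221 on those of the other dates. A level of 1 probe is set only against the same probe in other samples, except to choose the probe that stands for a gene and in a sum of markers. A probe counts as measured on an array where the scanner software called it well above background, which held for 47.9% to 57.0% of probes, and levels of a probe that was not have no order among themselves. Where groups are said not to overlap, that is a description. The share of all genes for which the same holds is not given. The response to treatment was present in these cells: of Isg15, Ifit1, Irf7 and Usp18, which are antiviral response genes, 4 of 4 rose at 1000 IU/ml IFN epsilon, with Ifit1 7.10 higher on the log2 scale, and 4 of 4 rose at 1000 IU/ml IFN beta, with Ifit1 6.83 higher (limma, Benjamini-Hochberg adjusted p = 5.75e-05 and 0.000118). In the same test 2.31% and 1.59% of all genes passed at these doses. The 7 epithelial and mesothelial-like marker genes (Krt7, Krt8, Krt18, Krt19, Wt1, Upk3b, Msln) were well above background on every array. Of 13 leukocyte and antigen-presenting cell markers, Itgam, Csf1r, Cd68 and Cd3e were well above background on every array, and Ptprc, Itgax, Lyz2, Cd79a, Ms4a1 and Flt3 on none. The summed level of the 13 lay between 323 and 424% in cells at 1000 IU/ml IFN epsilon, between 297 and 423% at 1000 IU/ml IFN beta and between 370 and 400% in untreated cells. Itgam alone gave 233 to 237% in untreated cells, and the sum includes markers never well above background. The sum thus says little of the dimmer markers. In RNA from whole cultures, a change in the number of expressing cells and a change in RNA per cell cannot be told apart.

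**Figure D1:**
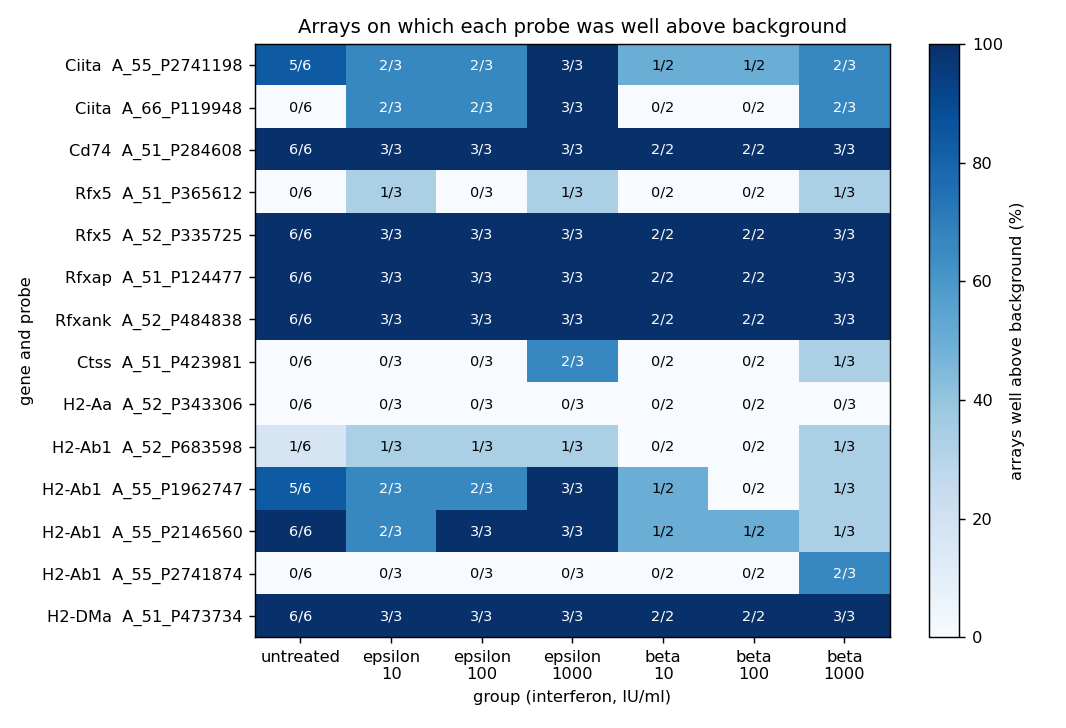
Each cell gives the number of arrays on which a probe (rows, with its gene) was well above background out of all arrays of the group (columns), and the colour is that share in percent. Cd74, Rfxap, Rfxank, H2-DMa and 1 of 2 Rfx5 probes were measured on every array, H2-Aa on none, and Ciita (A_66_P119948) and Ctss on 0 of 6 untreated arrays.

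Set against untreated cells, the class II pathway genes were called in 1 of 6 treated groups. At 1000 IU/ml IFN epsilon, 2 of the 8 tested genes were called higher, Rfx5 and Ctss, and 0 lower, where 2.31% of all genes tested were called in either direction. Under the same limma test 0 were called at 10 IU/ml IFN epsilon (0.201% of all genes) and 0 at 100 IU/ml (1.05%), with 0 and 1 of the 8 at an unadjusted p under 0.05. Of all 14425 genes, 152 and 483 had an unadjusted p under 0.05 there. For IFN beta 0 were called at 10 (0% of all genes), at 100 (0.111%) and at 1000 IU/ml (1.59%), with 0, 0 and 3 at an unadjusted p under 0.05. Of all genes, 48, 183 and 788 were under 0.05 unadjusted at these doses. With the date of the experiment as a block in the limma fit, 0 were called at 10 IU/ml IFN epsilon (0.499% of all genes), Rfx5 was called at 100 IU/ml IFN epsilon (1.62% of all genes) and Ciita (by its probe A_66_P119948), Rfx5 and Ctss at 1000 IU/ml (8.11%), and for IFN beta 0 were called at any dose (0%, 0.291% and 3.45% from 10 to 1000 IU/ml). Ctss passed the filter on dim probes through the group at 1000 IU/ml IFN epsilon alone, and the Ciita probe that stands for the gene through treated groups alone, so their entry into the test depended on their being high there. Their calls are thus a description. The median log2 difference of the 8 genes was 0.75 at 1000 IU/ml IFN epsilon, against -0.05 over all genes, and 0.11 at 1000 IU/ml IFN beta, against -0.04. These medians include Ciita and Ctss, so they are a description too.

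**Figure D2:**
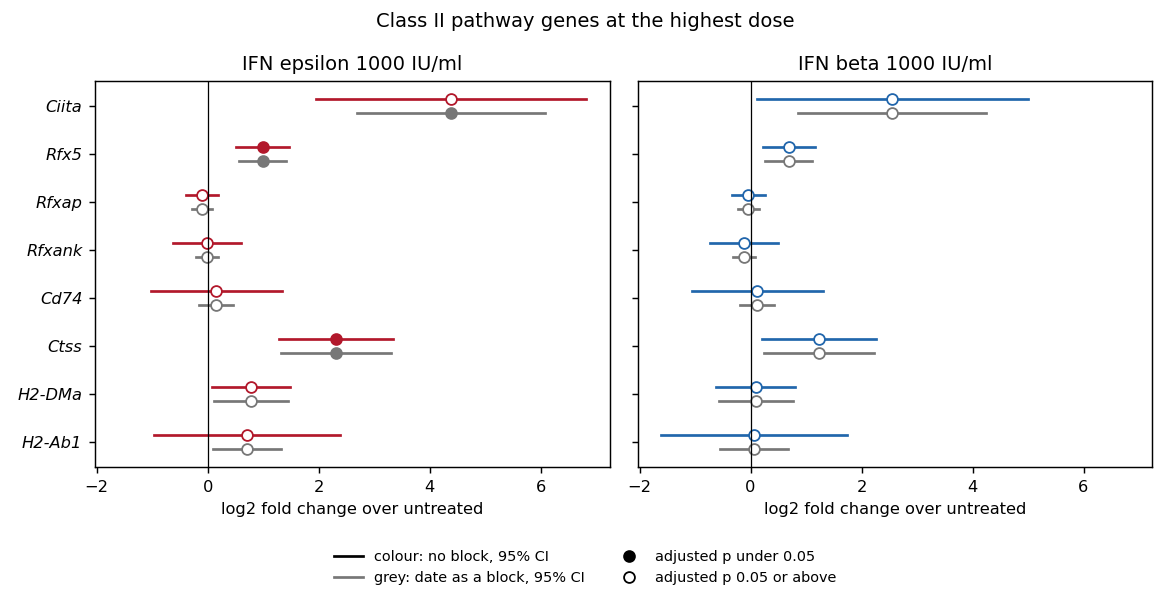
Points give the log2 fold change over untreated cells of the 8 tested genes at 1000 IU/ml IFN epsilon (left) and IFN beta (right), with lines for the 95% confidence interval, in colour without and in grey with the date as a block. Filled points have an adjusted p under 0.05, which holds for Rfx5 and Ctss under IFN epsilon in both fits and for Ciita under IFN epsilon with the block.

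Ciita, the class II transactivator, was measured in every sample at 1000 IU/ml IFN epsilon with the probe that stands for the gene (A_66_P119948), and in no untreated sample. Its levels on the dates 1, 2 and 3 were 10.0, 43.0 and 20.9% of the array's 75th percentile at 1000 IU/ml IFN epsilon, against 0.787, 1.24 and 1.02% in untreated cells, of which none was well above background. The groups do not overlap, and the mean at 1000 IU/ml exceeded that of untreated cells at least 10.2-fold, a bound set against the lowest signal well above background on the untreated arrays. The limma fit gave a log2 difference of 4.38 ± 1.14 (SE, n = 3 each) with an adjusted p of 0.0716, and of 0.00467 with the date as a block. At 100 IU/ml IFN epsilon the levels were 1.11, 8.69 and 6.08%, with the first not well above background, so no bound on the fold is given (limma, adjusted p = 1.00, and 0.326 with the block). At 10 IU/ml they were 0.411, 2.06 and 6.49%, again with the first not well above background. On the first date this probe was therefore measured at the highest dose of IFN epsilon only, and on the other dates at every dose.

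Under IFN beta, the probe A_66_P119948 of Ciita was measured in 2 samples, both at 1000 IU/ml. Its levels there were 1.51, 3.98 and 33.8% on the dates 1, 2 and 3, with the first not well above background, and all 4 samples at the lower doses lay between 0.373 and 1.21% with none above background. The sample of the third date was the highest by far, within the range of the 3 samples at 1000 IU/ml IFN epsilon, and the other samples lay below that range. The fitted log2 difference between 1000 IU/ml IFN beta and untreated cells was 2.56 ± 1.14 (SE) and did not pass (limma, adjusted p = 0.845, and 0.105 with the block), and without the third sample it was 1.30. The sample of the first date was not measured, so no bound on the fold is given.

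The second Ciita probe (A_55_P2741198) was well above background on 5 of 6 untreated arrays and showed smaller differences. It gave 3.20, 6.55 and 5.02% at 1000 IU/ml IFN epsilon and 3.17, 1.88 and 6.75% at 1000 IU/ml IFN beta, against 1.93, 2.64 and 2.86% in untreated cells. All 3 samples at 1000 IU/ml IFN epsilon lay above all untreated samples, by 0.95 ± 0.39 on the log2 scale (SE), which did not pass (limma over probes, adjusted p = 0.554, and 0.210 with the block). At 100 IU/ml IFN epsilon this probe gave a log2 difference of -0.05, opposite in sign to that of the probe A_66_P119948, 1.96. Under IFN beta it was well above background in the sample of the first date at each dose and in that of the third date at 1000 IU/ml. The probes thus disagree on the size of the difference at 1000 IU/ml and on its sign at 100 IU/ml, and the call of Ciita with the block holds for 1 of them. A_66_P119948 stands for the gene because its mean over the 19 samples was the higher, by a narrow margin (-5.177 against -5.181 on the log2 scale), and the treated samples decided that: in untreated cells it averaged 1.02%, against 2.47% for A_55_P2741198.

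**Figure D3:**
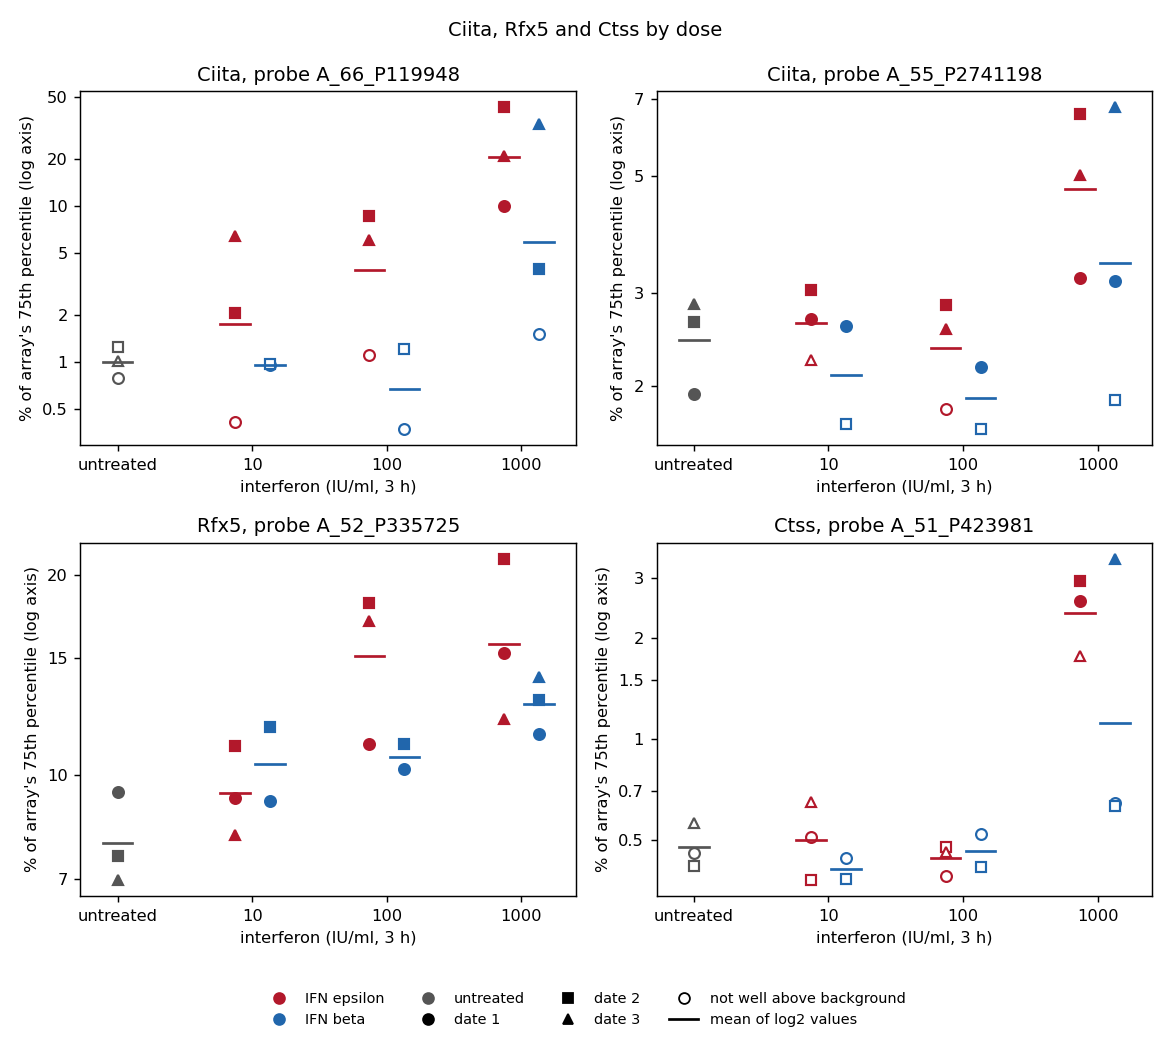
Each panel plots the level of 1 probe (log axis, percent of the array's 75th-percentile intensity) against the dose, for untreated cells (grey), IFN epsilon (red) and IFN beta (blue), with a marker shape for each date, open markers where the probe was not well above background and bars at the mean of the log2 values. At 1000 IU/ml IFN epsilon, Ciita stands above its untreated levels in all 3 samples. Ctss does so in the samples of the first and second date, and that of the third was not well above background. Under IFN beta the sample of the third date stands highest, at 33.8% for Ciita and 3.43% for Ctss.

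Rfx5, the DNA-binding subunit of the RFX complex, rose at 1000 IU/ml IFN epsilon and was measured on all 22 arrays with its probe A_52_P335725. Its levels were 15.3, 21.2 and 12.2% at 1000 IU/ml IFN epsilon, against 9.45, 7.57 and 6.97% in untreated cells. The groups do not overlap, and the log2 difference was 0.99 ± 0.22 (SE, n = 3 each; limma, adjusted p = 0.0253, and 0.00833 with the block). At 100 IU/ml IFN epsilon the levels were 11.1, 18.2 and 17.1%, also all above the untreated samples, with a log2 difference of 0.93 ± 0.22 (limma, adjusted p = 0.0770, and 0.0324 with the block). At 10 IU/ml they were 9.26, 11.1 and 8.14%, which overlaps the untreated samples. Rfx5 was thus about as high at 100 as at 1000 IU/ml, whereas Ciita and Ctss were highest at 1000 IU/ml.

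Under IFN beta, Rfx5 levels were 9.15 and 11.8% at 10 IU/ml, 10.2 and 11.1% at 100 IU/ml, and 11.5, 13.0 and 14.0% at 1000 IU/ml. All 3 samples at 1000 IU/ml lay above all 3 untreated samples, by 0.69 ± 0.22 on the log2 scale, which did not pass (limma, adjusted p = 0.290, and 0.0815 with the block). The other Rfx5 probe (A_51_P365612) was well above background on 3 of 22 arrays and was not tested.

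The call of Rfx5 at 1000 IU/ml IFN epsilon was lost when the arrays were scaled in another way (limma, adjusted p = 0.391 by the median, 0.268 by quantiles, 0.482 with another background correction, 0.468 in the authors' deposited table), with log2 differences of 0.61, 0.77, 0.42 and 0.57, against 0.99. Over 24 alternatives the call held in 5, with a positive difference in all 24 and an adjusted p between 0.00833 and 0.827. Single samples also decided it: the adjusted p was 0.110 and 0.142 without the untreated sample of the second or of the third date, and 0.0732 and 0.152 without the treated sample of the first or of the second. At 100 IU/ml the call was gained without the treated sample of the first date (adjusted p = 0.0177).

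A promoter window from RefSeq was at hand for 5 of the 9 genes, and 3 of them are shown: the 2 genes called without the block, Ctss and Rfx5, and H2-Aa, the class II alpha chain that stayed below background. Each runs over 300 bases of the build GRCm38.p6, 5′ to 3′ on the strand of the gene, and ends 50 bases after the annotated start. The windows are Ctss at chr3:95526536-95526835 (+), Rfx5 at chr3:94953858-94954157 (+) and H2-Aa at chr17:34287774-34288073 (-). The Rfx5 window lies within the gene, which spans chr3:94950689-94961561, so its annotated start is an internal start and not the first base of the gene. Capitals mark matches, on either strand, to GAAANNGAA (a core of the interferon-stimulated response element), TTCNNNGAA (the gamma-activated site), ATTGG (the Y box, bound by NF-Y), TGACGTCA (the X2 box, bound by CREB) and AGCAACNNA (part of the X1 box, bound by the RFX complex).
Ctss: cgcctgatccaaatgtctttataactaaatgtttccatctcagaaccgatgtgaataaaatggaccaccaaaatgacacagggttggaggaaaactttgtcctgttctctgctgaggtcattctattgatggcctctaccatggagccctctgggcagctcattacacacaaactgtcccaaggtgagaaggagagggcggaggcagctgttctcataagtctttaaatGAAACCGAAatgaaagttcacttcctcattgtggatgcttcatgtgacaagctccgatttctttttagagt
Rfx5: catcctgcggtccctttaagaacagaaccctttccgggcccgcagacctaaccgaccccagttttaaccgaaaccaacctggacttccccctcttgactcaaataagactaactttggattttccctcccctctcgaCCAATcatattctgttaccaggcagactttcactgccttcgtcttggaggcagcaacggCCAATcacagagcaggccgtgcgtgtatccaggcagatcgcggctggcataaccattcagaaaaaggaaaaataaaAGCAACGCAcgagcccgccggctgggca
H2-Aa: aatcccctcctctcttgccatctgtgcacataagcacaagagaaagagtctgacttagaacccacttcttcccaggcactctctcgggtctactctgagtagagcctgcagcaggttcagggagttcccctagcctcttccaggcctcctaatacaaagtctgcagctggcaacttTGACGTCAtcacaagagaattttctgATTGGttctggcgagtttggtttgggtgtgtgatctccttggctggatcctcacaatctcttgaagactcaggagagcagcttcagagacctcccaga
The Ctss window holds 1 match to GAAANNGAA, starting 21 bases before the annotated start, a motif that 8.56% of 32851 promoter windows hold. The Rfx5 window holds 2 matches to ATTGG on the reverse strand, starting 113 and 54 bases before the start, and 37.4% of all windows hold that motif. It also holds 1 match to AGCAACNNA, after the annotated start, at the positions 273 to 281 of the window, a motif that 3.84% of all windows hold. The H2-Aa window holds TGACGTCA, starting 74 bases before the start and held by 1.79% of all windows, followed by ATTGG, starting 48 bases before it. TTCNNNGAA was not matched in these windows, against 8.30% of all windows. The motifs were settled after a first search of these windows had been seen: the interferon element and the X1 box were shortened, which makes matches more common. These are matches of letters and no measurement of binding.

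Rfxap and Rfxank, the other subunits of the RFX complex, were measured on all 22 arrays and were not called in any comparison. Rfxap lay between 175 and 241% over all 19 samples. It was 192, 194 and 200% at 1000 IU/ml IFN epsilon, 214, 175 and 228% at 1000 IU/ml IFN beta and 203, 200 and 227% in untreated cells. The log2 differences from untreated cells were -0.10 (95% confidence interval -0.39 to 0.19) for IFN epsilon and -0.04 (-0.33 to 0.25) for IFN beta. Rfxank was 141, 133 and 80.7% at 1000 IU/ml IFN epsilon, 138, 115 and 76.7% at 1000 IU/ml IFN beta and 141, 127 and 87.6% in untreated cells. Every group overlapped the untreated samples, and the log2 differences were -0.02 (-0.63 to 0.60) and -0.12 (-0.73 to 0.49). With the date as a block the intervals for Rfxank were -0.22 to 0.18 and -0.32 to 0.08. Rfxank differed by date instead: all 5 samples of the third date lay between 72.6 and 102%, and the 14 samples of the other dates between 110 and 160%.

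Ctss, the protease that trims the invariant chain, was not well above background on any untreated array, but was on 2 of 3 arrays at 1000 IU/ml IFN epsilon. Its levels there were 2.56, 2.94 and 1.76%, with the first and second well above background, against 0.458, 0.421 and 0.562% in untreated cells. The first and second lay above all untreated samples. The third cannot be ordered against those, since neither it nor they were well above background. The fitted log2 difference was 2.31 ± 0.48 (SE, n = 3 each; limma, adjusted p = 0.0144, and 0.00845 with the block). That fit uses the unmeasured levels, which have no order, so its difference, SE and p-values are a description. No bound on the fold is given. None of the 6 samples at 10 and 100 IU/ml IFN epsilon was well above background, with levels between 0.382 and 0.649%. Ctss was also the one gene of the 8 called between 1000 and 10 IU/ml IFN epsilon (limma, adjusted p = 0.0306; 1.41% of all genes called), where no sample at 10 IU/ml was well above background. With the block Ciita joined it (limma, adjusted p = 0.0215, and 4.55% of all genes called). Ctss entered the test through its measured samples at 1000 IU/ml IFN epsilon alone. Its calls against untreated cells and against 10 IU/ml thus draw on the values that admitted it, and are a description. Between 1000 and 10 IU/ml IFN beta 0 of the 8 were called (1.13% of all genes), and 0 with the block (1.75%). Without the block, 1 of the 8 and 682 of all genes had an unadjusted p under 0.05 in limma.

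Under IFN beta, Ctss was measured in 1 of 7 samples. The levels at 1000 IU/ml were 0.646, 0.631 and 3.43%, and the sample of the third date alone was well above background. The fitted log2 difference was 1.23 ± 0.48 (limma, adjusted p = 0.584, and 0.180 with the block) and was 0.42 without that sample, and no bound on the fold above 1 could be given. All 4 samples at 10 and 100 IU/ml lay between 0.383 and 0.521%.

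The call of Ctss at 1000 IU/ml IFN epsilon was lost under each of the other scalings (limma, adjusted p = 0.180 by the median, 0.399 by quantiles, 0.645 with another background correction, 0.534 in the authors' deposited table). Its log2 difference was 1.93, 1.72, 0.31 and 0.78 in these, against 2.31. Over 23 alternatives the call held in 9, with a positive difference in all 23 and an adjusted p between 3.14e-05 and 0.729. It was lost without the untreated sample of the first or second date (0.0605 and 0.0700) and without the treated sample of the first or second date (0.0598 and 0.0787). Ciita passed in 6 of 25 alternatives, of which 5 hold the date as a block, with a positive difference in all 25 and an adjusted p between 1.75e-06 and 1.00. Its log2 difference was 1.77 with another background correction, 2.81 in the authors' deposited table and 2.67 as the mean of its probes, against 4.38.

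Cd74, the invariant chain, was measured on all 22 arrays and was not called at any dose of either interferon. Its levels were 9.66, 11.3 and 29.7% at 1000 IU/ml IFN epsilon and 8.78, 14.8 and 23.5% at 1000 IU/ml IFN beta, against 9.35, 10.8 and 23.5% in untreated cells. These groups overlap, and within each the third date is the highest. The log2 differences from untreated cells were 0.15 (95% confidence interval -1.03 to 1.33) for IFN epsilon and 0.12 (-1.06 to 1.30) for IFN beta. With the date as a block these intervals were -0.16 to 0.46 and -0.19 to 0.43. By date, all 5 samples of the third lay between 21.9 and 29.7%, and the 14 samples of the other dates between 7.43 and 14.8%.

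H2-Ab1, the beta chain of the I-A class II molecule, has 4 probes on the array, and the probe A_55_P2146560, which stands for the gene, was well above background on 17 of 22 arrays. It gave 3.41, 5.95 and 11.5% at 1000 IU/ml IFN epsilon and 1.70, 2.42 and 14.8% at 1000 IU/ml IFN beta, against 2.50, 2.94 and 7.17% in untreated cells. On each date the sample at 1000 IU/ml IFN epsilon lay above the untreated sample of that date, but the groups overlap and the log2 difference of 0.71 ± 0.78 (SE) did not pass (limma, adjusted p = 1.00, and 0.148 with the block). For IFN beta the log2 difference was 0.07 ± 0.78, and its 2 lower samples were not well above background. The probe A_55_P1962747 was well above background on 14 arrays and gave log2 differences of 0.67 and 0.62 for IFN epsilon and IFN beta at 1000 IU/ml, the probe A_55_P2741874 was so on 2 arrays, both at 1000 IU/ml IFN beta, and the probe A_52_P683598 on 5. H2-Aa, the alpha chain that pairs with it, was not well above background on any array, with levels between 0.306 and 1.89%.

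**Figure D4:**
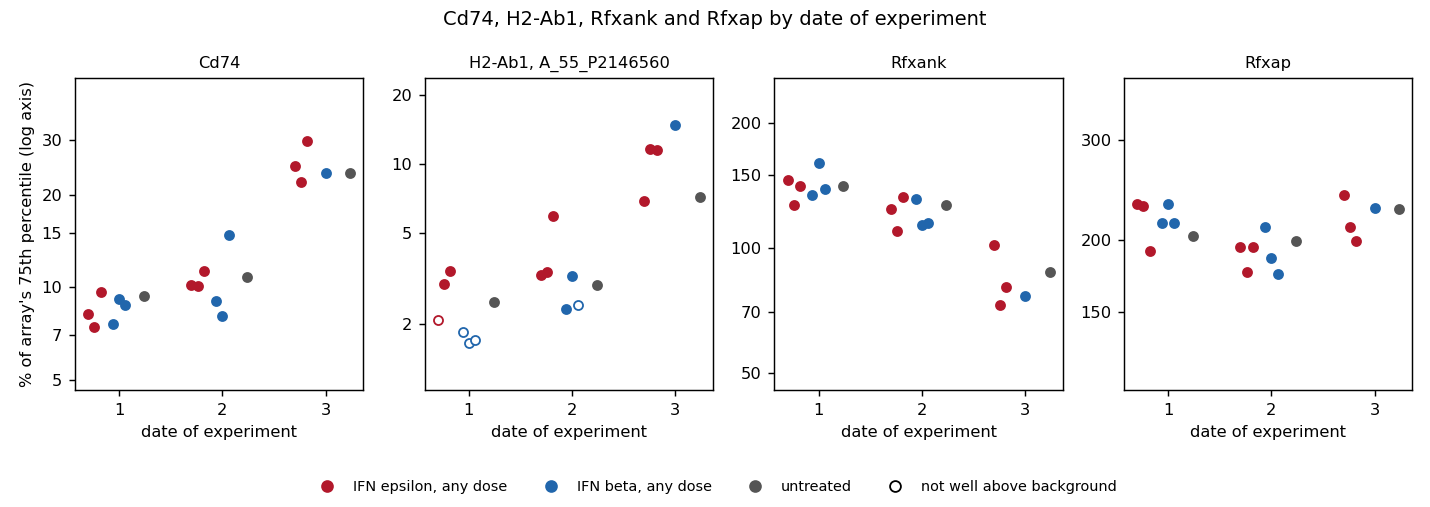
Levels of Cd74, H2-Ab1, Rfxank and Rfxap (log axis, percent of the array's 75th-percentile intensity) are plotted by date of the experiment for IFN epsilon at any dose (red), IFN beta at any dose (blue) and untreated cells (grey), with 1 point a sample and open points where the probe was not well above background. On the third date Cd74 lay at 21.9% or above and Rfxank at 102% or below in treated and untreated cells alike. H2-Ab1 lay at 6.88% or above on that date and at 5.95% or below on the others, and Rfxap showed no such split.

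H2-DMa, the alpha chain of the peptide-loading molecule H2-DM, was measured on all 22 arrays. It gave 6.85, 9.20 and 16.2% at 1000 IU/ml IFN epsilon and 4.77, 7.55 and 6.74% at 1000 IU/ml IFN beta, against 6.41, 7.14 and 4.38% in untreated cells. The sample of the third date at 1000 IU/ml IFN epsilon was the highest of all 19, and the groups overlap. The log2 difference of 0.78 ± 0.33 (SE) at 1000 IU/ml IFN epsilon did not pass (limma, adjusted p = 0.511, and 0.146 with the block), and that at 1000 IU/ml IFN beta was 0.09 ± 0.33.

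IFN epsilon and IFN beta were compared at matched doses in the same fit. Of the 8 genes, 0 were called at 10 IU/ml (0.0971% of all genes), 0 at 100 IU/ml (0.0901%) and 0 at 1000 IU/ml (0%), with 0, 0 and 1 at an unadjusted p under 0.05 in limma, and also 0 at each dose with the block (0.118%, 0.367% and 0% of all genes from 10 to 1000 IU/ml). Without the block, 137, 420 and 192 of all genes had an unadjusted p under 0.05 at these doses. The test of whether the dose range from 10 to 1000 IU/ml acted differently for the 2 interferons called 0 of the 8 and 0% of all genes. An unadjusted p under 0.05 held there for 0 of the 8 and for 131 of all genes. At 1000 IU/ml the log2 difference of IFN epsilon over IFN beta was 1.83 for Ciita (95% confidence interval -0.61 to 4.26), 0.30 for Rfx5 (-0.17 to 0.78) and 1.08 for Ctss (0.06 to 2.10). With the date as a block these intervals were 0.13 to 3.52, -0.12 to 0.65 and 0.09 to 2.07. For H2-Ab1 and H2-DMa the block gave 0.03 to 1.26 and 0.02 to 1.36. None of these genes passed with the block (limma, adjusted p from 0.841 to 0.913). The intervals of Ciita and Ctss draw on unmeasured levels. On the second date the Ciita probe A_66_P119948 was higher under IFN epsilon by 3.43 and on the third it was lower, with a difference of -0.69, and on the first date its IFN beta sample was not well above background. Ctss was well above background under IFN epsilon alone on the dates 1 and 2 and under IFN beta alone on the third, so no date gives it a measured difference. Without the IFN beta sample of the third date Ctss was called between the interferons (limma, adjusted p = 0.0113) and Ciita was not (adjusted p = 1.00). Neither remaining IFN beta sample was well above background for Ctss, so its call there is a description. At 100 IU/ml, the Ciita probe A_66_P119948 was measured in 2 of 3 samples under IFN epsilon and in 0 of 2 under IFN beta (limma, adjusted p = 0.999). The IFN beta group lacks the third date, whose excluded array gave 29.8%, against 6.08% under IFN epsilon on that date. On the first date neither sample was well above background. On the second the level was 8.69% under IFN epsilon, with IFN beta not well above background. At the same dose the probe A_55_P2741198 gave a log2 difference of 0.31, with 2 of 3 samples measured under IFN epsilon and 1 of 2 under IFN beta.

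Other genes of the class II pathway and its controls were counted for the same comparisons. Of 6 further class II chains and editors named on the array, H2-DMb1, the beta chain of H2-DM, was the one tested, and it was not called (log2 difference 0.31 at 1000 IU/ml IFN epsilon and 0.23 at 1000 IU/ml IFN beta). H2-Eb1 was well above background on 1 array at 1000 IU/ml IFN beta, H2-Ob on 1 untreated array, and H2-Eb2, H2-DMb2 and H2-Oa on none. Of 11 promoter partners and genes of the interferon gamma route, 1 rose at 1000 IU/ml of each interferon: the interferon regulatory factor Irf2, by 1.42 and 1.35 on the log2 scale (limma, adjusted p = 0.0215 and 0.0426). Of all genes tested, 2.31% and 1.59% were called there. The count for this list stayed at 1 in 11 of 24 alternatives for IFN epsilon and in 7 of 24 for IFN beta, and ran from 0 to 3 and from 0 to 2. Irf1, which acts on the interferon gamma-responsive Ciita promoter, had log2 differences of 0.97 and 1.1 that did not pass (limma, adjusted p = 0.367 and 0.327, and 0.0539 and 0.0545 with the block). The median of the 11 was -0.09 at 1000 IU/ml IFN epsilon, against -0.05 over all genes, and -0.02 at 1000 IU/ml IFN beta, against -0.04.

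Of 5 tested relatives of Rfx5 (Rfx1, Rfx2, Rfx3, Rfx7, Rfx8), 0 were called at any dose of either interferon in limma, with and without the block, and their log2 differences at 1000 IU/ml IFN epsilon ran from -0.33 to -0.03. Of 16 tested endosomal proteases and handling genes other than Ctss, 0 were called without the block, with log2 differences from -0.92 to 0.12 at 1000 IU/ml IFN epsilon. With the block 1 was called there, the cathepsin Ctsk (limma, adjusted p = 0.0281, and 0.983 without the block). In that fit 8.11% of all genes were called, and 1 of 16 is near that share. Ctsk was well above background on 2 of 3 arrays at 1000 IU/ml IFN epsilon and on 4 of 6 untreated arrays, at 0.828 to 3.39% against 2.15 to 5.86%, so the groups overlap. Of 10 tested MHC class I genes in the same samples, 10 rose at 1000 IU/ml IFN epsilon (2.31% of all genes called) and 8 at 1000 IU/ml IFN beta (1.59%), with medians of 2.28 and 1.83. These counts ran from 0 to 10 and from 0 to 9 when samples were left out, with 0 of each without the second date, and were 1 and 0 with all 24 arrays. Nlrc5, the class I transactivator and a relative of Ciita, rose by 4.96 and 4.31 on the log2 scale, Tap1, a peptide transporter subunit, by 3.95 and 3.62, and Psmb9, an immunoproteasome subunit, by 3.85 and 3.18. Nlrc5 was well above background on every array, untreated ones included.

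Over the 19 samples, the genes whose log2 levels were most like those of Ciita were Stoml1, Tmem140, Ccrl2, Arel1 and Gbp4 (Pearson's r from 0.927 to 0.937). Ciita was measured in 9 of these samples and H2-Ab1 in 14, and Ctss, measured in 3, is left out. For Rfx5 they were Adra1b, H2-Q10, H2-T-ps, Csprs and Apobec1 (0.867 to 0.922). For Cd74 they were Habp2, M1ap, Me3, Slc1a6 and Gm12359 (0.958 to 0.971). For H2-Ab1 they were Gadd45g, Nupr1, Gal3st2, Endod1 and Atp11a (0.943 to 0.957), and for Rfxank they were Arap1, Rarg, Fdxr, Cdk5rap3 and Niban3 (0.960 to 0.967). For Rfxap the likeness ran from 0.933 to 0.956, led by Ahctf1, and for H2-DMa from 0.845 to 0.919, led by Apoc1. Among the members themselves, Ciita and Rfx5 had an r of 0.68, Cd74 and H2-Ab1 one of 0.86, and Rfxank had -0.86 with Cd74 and -0.90 with H2-Ab1. The 19 points share dates, and these values are a description.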

How the data were processed

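RNA from ID8 cells was measured on 1-colour Agilent arrays, 24 arrays on 3 slides, of which 22 were used and the 2 marked as excluded in the labels were left out. The scanner intensity of each spot is the processed signal of Agilent Feature Extraction 11.0.1.1, per the submitters' processing notes, which corrects background before the values were deposited. The authors' deposited table holds log2 values of the same arrays, made with R 3.6.1 and limma 3.42.0 per the submitters' processing notes, with its steps not given in the sources used here. It served as an alternative.

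Here each array's log2 processed signal was set against its 75th percentile, outlier-flagged spots were left out (79 to 280 an array; 0 spots were saturated), spots of a probe were averaged, and the 2 arrays of each untreated sample were averaged. Probes entered where 2 or more samples of a group were called well above background, a gene was represented by its brightest probe on average, and genes were named through RefSeq accessions (GRCm38.p6). One limma 3.58.1 fit in R 4.3.3 (lmFit, eBayes) covered the 7 groups, and p-values were adjusted by Benjamini-Hochberg over 14425 genes at a threshold of 0.05. The fit was tested on simulated data with independent noise, no date effect and no background floor. That test therefore does not cover shared dates or genes near background. Figures were drawn with matplotlib 3.10.9. The number of arrays limits the precision.

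The replicate number marks the date, since the series text places replicates on separate dates. Of 30 same-numbered pairs of samples, 29 deviated together with a correlation over 0.1 (0.0863 to 0.766, median 0.601), so the fit with the date as a block is given where it changes a call. Alternatives were the block, the slide, other scalings (median, quantile), normexp with an offset of 50 on median spot signals (the files hold no mean signals), the deposited table, other filters, other probes, all 24 arrays, and leaving out samples. The members and gene lists were chosen with earlier results of these data known. One gene of the list of promoter partners is not reported here, and the counts and median of that list leave it out. The genes named are the 9 members, up to 3 called genes of each list, 4 response genes, and the 5 genes most correlated with each tested member, Ctss excepted, which was measured in too few samples. That exception was made after its values were seen.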

Additional observations from a re-analysis of the deposited data

Results flagged for a closer look

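The 2 arrays marked as excluded in the labels were IFN beta at 10 and at 100 IU/ml on the third date. They were left out of the main fit and of the fit with the date as a block. The alternative with all arrays did use them. The Ciita level of the array at 100 IU/ml is also set against that of IFN epsilon above, outside any test. These arrays are listed because Ciita, Rfx5, Ctss and H2-Ab1 stood there above every untreated array. The share of all genes that did so is not given, so these values are a description. Ciita (A_66_P119948) was 29.8% of the array's 75th percentile on the excluded array at 100 IU/ml and 7.53% on that at 10 IU/ml, where the highest untreated array gave 1.68%. Rfx5 was 14.7% at 100 IU/ml, against at most 11.1% on untreated arrays. Ctss was 4.32% at 100 IU/ml, against at most 0.567%. H2-Ab1 (A_55_P2146560) was 14.9% at 100 IU/ml and 10.1% at 10 IU/ml, against at most 7.35%. The IFN beta sample of the same date at 1000 IU/ml, which was used, gave 33.8% for Ciita and 3.43% for Ctss, also the highest IFN beta values of those genes among the samples used. The reason for the exclusion was not tested. No group has over 3 samples, so single samples within a group were not tested as outliers.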

How the results depend on the processing

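The number of class II pathway genes called at 1000 IU/ml IFN epsilon against untreated cells was 2 and depended on the setting. It was 0 with median scaling, quantile normalization, normexp, the authors' deposited table and all 24 arrays. It was 1 with no filter, a stricter filter or the slide as a term, and 0 to 2 when samples or dates were left out. The number called between 1000 and 10 IU/ml IFN epsilon was 1, fell to 0 under those 5 settings, both filters and the slide term, and was 0 to 1 when samples were left out. With the date as a replicate block it was 2 (4.55% of all genes), and 1 gene was called at 100 IU/ml IFN epsilon (1.62%) and 3 at 1000 IU/ml (8.11%). Settings that join the block with another scaling were chosen after seeing the data. With the block and median scaling, 2 genes were called between 1000 and 10 IU/ml IFN epsilon and 1 (Ciita) at 1000 IU/ml IFN beta. With the block and quantile normalization, normexp or the deposited table, 1 gene (Ciita) was called at 1000 IU/ml IFN epsilon. When samples were left out, 0 to 1 genes were called at 100 IU/ml IFN epsilon and 0 to 1 (Ctss) between IFN epsilon and IFN beta at 1000 IU/ml. The single reversal was Ciita at 100 IU/ml IFN epsilon, whose log2 difference was -0.048 with the other probe. Median scaling moved the median of all genes to -0.43 at 1000 IU/ml IFN epsilon and -0.19 at 1000 IU/ml IFN beta. That shift is one constant for every gene, so it leaves differences relative to the median as they were, 1.05 for Rfx5 and 2.36 for Ctss at 1000 IU/ml IFN epsilon. Relative to the median of all genes these were 0.85 and 1.81 with quantile normalization, 0.49 and 0.38 with normexp, and 0.65 and 0.87 in the authors' deposited table. Over all genes, the calls at 1000 IU/ml IFN epsilon were 333, against 1170 with the replicate block and 173 with median scaling. For the other settings the count over all genes is not given, so the counts of listed genes there are a description. Ctss did not pass the stricter filter and has no value there. Signal over background limits Ciita, Ctss, H2-Aa and H2-Ab1.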
